A study of Danio rerio with 2 samples.

Results

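The integrated stress response genes described here are 10 genes of the zebrafish, *atf5a*, *atf5b*, *ddit3*, *asns*, *trib3*, *xbp1*, *hspa5*, *ern1*, *eif2ak1* and *atf6*. They were taken by name from the deposited table of 32105 genes, and each name matched 1 row. RNA was measured in cells sorted for green fluorescence from embryos of a gata1-EGFP line at 22 hours post fertilization, and the labels call these cells erythroblasts. The promoter of *gata1a*, the main transcription factor gene of red cell formation, drives the reporter, so the sort takes any cell that uses it. There was 1 library of the *add1* knockout and 1 library of siblings labelled wild type. *add1* encodes adducin 1, which caps actin filaments under the red cell membrane. The labels do not say how many embryos went into a library. The comparison shows how the transcriptome of these cells differed between the libraries. Genes beside *add1* on chromosome 21 were also far lower in the mutant library, as described below. Loss of *add1* therefore cannot be told apart from lower levels of its neighbours. The submitters' design text describes the stage as one without an evident difference in erythrocyte number, and cell numbers are not measured in these data.

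The integrated stress response is a shared answer of cells to several kinds of trouble. Kinases that sense short heme, misfolded protein, viral RNA or missing amino acids phosphorylate the initiation factor eIF2, which slows protein synthesis as a whole and favours translation of a few mRNAs, among them those of Atf4 and Atf5. These factors then turn on genes for amino acid supply, for Chop, a factor that promotes cell death, and for a phosphatase that ends the response. The unfolded protein response of the endoplasmic reticulum overlaps with it and adds the sensors Ire1, encoded by *ern1*, and Atf6. In red cell precursors the heme-regulated kinase, encoded by *eif2ak1*, is known for matching globin synthesis to heme. Only mRNA was measured here, and neither phosphorylated eIF2 nor spliced *xbp1* can be read from counts per gene.

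Since each genotype had 1 library, no test across embryos could be made, and genotype and library preparation cannot be told apart. Levels are CPM, counts scaled to the library total, and the authors' FPKM, which are also divided by gene length. Folds are ratios of CPM, mutant over sibling, with an exact 95% interval that covers the counting of reads only. Genes with at least 10 CPM in their higher library count as measured, and a measured gene was called if its ratio of CPM + 1 was 2-fold or more. The mutant library held 5956344 counts and the sibling library 6157792 counts. *add1* had 18 counts in the mutant, against 1166 in the sibling library, 62.7-fold lower (39.5 to 106). Of 9672 measured genes, 10.1% were called higher and 2.56% lower in the mutant library, with a median log2 ratio of 0.13. Scaling by TMM, which sets aside the most changed genes, gave 679 higher and 435 lower genes in place of 981 and 248, and a median of -0.08. Some log2 ratios are therefore also given relative to the median of all measured genes.

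Of the 10 genes, 9 were measured. *atf5a* alone was called, as higher in the mutant library, which is 1 of 9 measured members against 10.1% of all measured genes, and 0 members were called lower, against 2.56%. The share of members called was thus near that of all genes. The 9 measured members had a median log2 ratio of 0.52, against 0.13 for all measured genes. Over all 10 genes, 7 had a ratio above 1 and 3 a ratio below 1, and the same 7 and 3 counts stood under each of the 5 scalings tried, also relative to the median of all genes. The counting interval excluded 1 for every one of the 10 genes, but this held for many genes, with 40.0% of measured genes above 1 and 21.9% below 1.

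**Figure D1:**
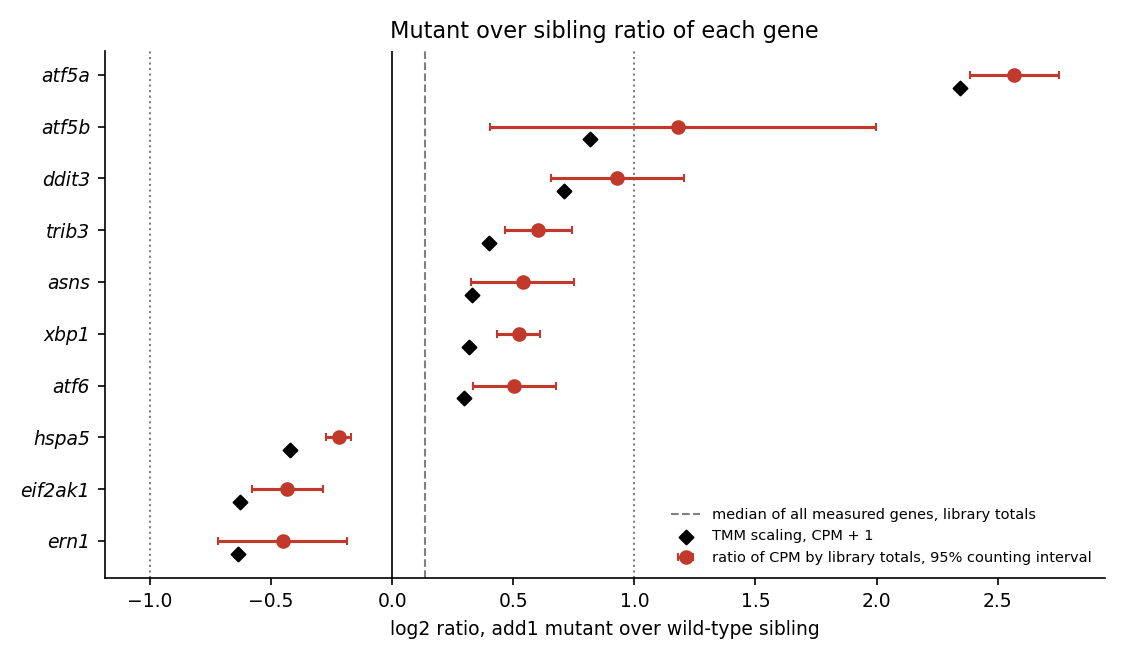
Log2 ratio of each of the 10 genes, mutant over sibling. Red points are ratios of CPM by library total with 95% counting intervals, black diamonds are log2 ratios of CPM + 1 after TMM scaling, the dashed line is the median of all measured genes and dotted lines mark 2-fold. *atf5a* stands apart at 2.54 on the scale of CPM + 1, *ddit3*, *trib3*, *asns*, *xbp1* and *atf6* lie between the median and 2-fold, *atf5b* passes 2-fold by the ratio of CPM but not of CPM + 1, and *hspa5*, *eif2ak1* and *ern1* lie below 0 in both scalings.

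The transcription factor *atf5a* (ENSDARG00000068096, chromosome 5, 29814097 to 29818483 on build GRCz10, as all positions here) had 1641 counts in the mutant, against 286 in the sibling library. These were 276 CPM in the mutant, against 46.4 CPM in the sibling library, 5.93-fold higher (5.23 to 6.75). In mammals Atf5 is a bZIP factor that is translated under stress and serves the mitochondrial stress response. Its log2 ratio of 2.54 ranked 93 from the top among 9672 measured genes, so 0.951% of genes had a higher one. It passed 2-fold under every scaling, with log2 ratios from 2.34 to 2.54, and under the 4-fold rule, which 1.85% of measured genes passed as higher.

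Its paralog *atf5b* (ENSDARG00000077785, chromosome 15, 17929973 to 17934068) was scarce. It had 46 counts in the mutant, against 21 in the sibling library, or 7.72 CPM in the mutant, against 3.41 CPM in the sibling library, and did not reach the minimum of 10 CPM. The ratio was 2.26 (1.32 to 4.0), and with 1 added to each CPM it was 0.98 on the log2 scale, just inside 2-fold. Per length, *atf5a* stood at 118 FPKM in the mutant, against 19.9 FPKM in the sibling library, while *atf5b* stood at 1.59 FPKM in the mutant, against 0.703 FPKM in the sibling library. The level of *atf5a* was thus 74.1 times that of *atf5b* in the mutant, against 28.3 times in the sibling library, and nearly all *Atf5* mRNA came from *atf5a* in both.

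*ddit3* (ENSDARG00000059836, chromosome 6, 58921658 to 58924855) encodes Chop, the factor that in mammals promotes cell death under lasting stress. It had 317 counts in the mutant, against 172 in the sibling library, or 53.2 CPM in the mutant, against 27.9 CPM in the sibling library. The ratio was 1.91 (1.58 to 2.31), which did not reach the 2-fold call, and 12.0% of measured genes had a higher log2 ratio than its 0.91. The gene's span overlaps that of *fam210b* by 2080 bases, and without a stated strand setting the reads of the overlap cannot be assigned with certainty. *fam210b* itself was at 209 CPM in the mutant, against 249 CPM in the sibling library, a ratio on the other side of 1.

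*trib3* and *asns* are textbook targets of Atf4. *trib3* (ENSDARG00000016200, chromosome 11, 23820673 to 23825339), a pseudokinase that feeds back on Atf4 and Chop, had 1068 counts in the mutant, against 727 in the sibling library. It was at 179 CPM in the mutant, against 118 CPM in the sibling library, a ratio of 1.52 (1.38 to 1.67). *asns* (ENSDARG00000016375, chromosome 19, 26070140 to 26093779), asparagine synthetase, had 444 counts in the mutant, against 316 in the sibling library. Its levels were 74.5 CPM in the mutant, against 51.3 CPM in the sibling library, a ratio of 1.45 (1.25 to 1.68). Neither was called, and relative to the median of all measured genes their log2 ratios were 0.46 for *trib3* and 0.40 for *asns*. Of measured genes, 21% had a higher ratio than *trib3* and 24.2% a higher ratio than *asns*.

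The kinase gene *eif2ak1* (ENSDARG00000093182, chromosome 12, 17469912 to 17481084) had 649 counts in the mutant, against 906 in the sibling library. It was at 109 CPM in the mutant, against 147 CPM in the sibling library, 1.35-fold lower (1.22 to 1.5) and not called. Its log2 ratio of -0.43 was 0.56 under the median of all measured genes, with 13.2% of genes lower still. The gene shares 430 bases with the span of *usp42*, which was at 38.1 CPM in the mutant, against 40.9 CPM in the sibling library. Red cell genes were lower in the same library. All 16 erythroid marker genes, globins among them, had a ratio under the median of all genes. Of these 16, 8 were called lower (10 with TMM scaling), beside 2.56% of all measured genes (4.52% with TMM scaling). The list took 4.39% of the mutant library's counts, against 9.39% in the sibling library. In RNA from a bulk of sorted cells, fewer cells of a type and less RNA per cell cannot be told apart. Whether the lower share of counts from the erythroid list accounts for the value of *eif2ak1* was not tested.

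Of the sensors of the endoplasmic reticulum, *ern1* and *atf6* lay on opposite sides. *ern1* (ENSDARG00000013997, chromosome 3, 55163897 to 55222546), the kinase and RNase that splices *xbp1* mRNA, had 203 counts in the mutant, against 287 in the sibling library. It was at 34.1 CPM in the mutant, against 46.6 CPM in the sibling library, 1.37-fold lower (1.14 to 1.65). *atf6* (ENSDARG00000012656, chromosome 20, 33906555 to 34006993), a membrane-bound factor that is cut free under stress, had 661 counts in the mutant, against 482 in the sibling library. It was at 111 CPM in the mutant, against 78.3 CPM in the sibling library, a ratio of 1.42 (1.26 to 1.6). Neither was called. The span of *atf6* overlaps that of *rxrgb*, a scarce gene at 5.88 CPM in the mutant, against 12.2 CPM in the sibling library.

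Downstream of these sensors, the factor gene and the main chaperone gene also differed in direction. *xbp1* (ENSDARG00000035622, chromosome 5, 15444194 to 15448703) encodes the factor made from the spliced mRNA. It had 2468 counts in the mutant, against 1777 in the sibling library, or 414 CPM in the mutant, against 289 CPM in the sibling library, a ratio of 1.44 (1.35 to 1.53). *hspa5* (ENSDARG00000103846, chromosome 5, 2440676 to 2448586) encodes BiP, the Hsp70 of the endoplasmic reticulum, and is the usual readout of the unfolded protein response. It had 5504 counts in the mutant, against 6628 in the sibling library, or 924 CPM in the mutant, against 1076 CPM in the sibling library, 1.16-fold lower (1.12 to 1.21). Neither was called. Relative to the median of all measured genes, the log2 ratio was 0.39 for *xbp1* and -0.35 for *hspa5*.

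**Figure D2:**
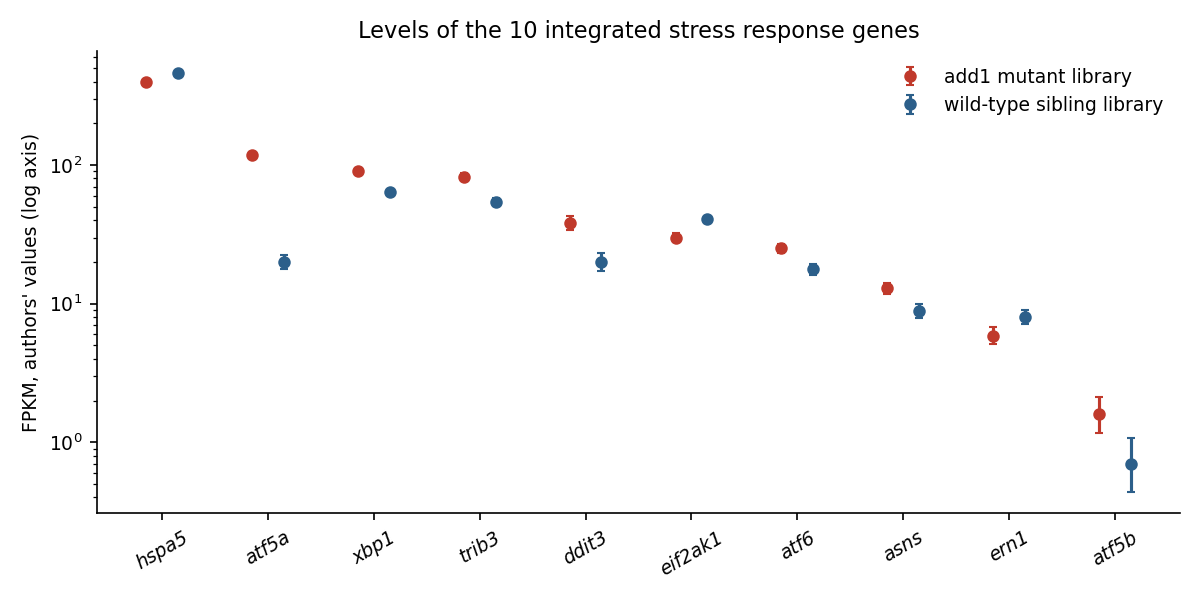
Levels of the 10 genes in the authors' FPKM on a log axis, red for the mutant library and blue for the sibling library, with 95% counting intervals. *atf5a* is at 118 FPKM in the mutant, against 19.9 FPKM in the sibling library, the widest gap among the 9 measured genes, and apart from it only *ddit3* and *eif2ak1* trade places between the libraries.

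Per length, *hspa5* was the most abundant of the 10 in both libraries, at 395 FPKM in the mutant, against 460 FPKM in the sibling library, and *atf5b* the least. In the mutant library *atf5a* came next, followed by *xbp1* at 91.0 FPKM, *trib3* at 82.2 FPKM, *ddit3* at 38.3 FPKM, *eif2ak1* at 29.98 FPKM, *atf6* at 25.03 FPKM, *asns* at 12.9 FPKM and *ern1* at 5.88 FPKM. The counting intervals of neighbours in this order did not overlap. In the sibling library the order was *xbp1* at 63.4 FPKM, *trib3* at 54.2 FPKM, *eif2ak1* at 40.5 FPKM, *ddit3* at 20.1 FPKM, *atf5a* at 19.9 FPKM, *atf6* at 17.7 FPKM, *asns* at 8.88 FPKM and *ern1* at 8.04 FPKM. There the intervals of *ddit3* and *atf5a*, of *atf5a* and *atf6*, and of *asns* and *ern1* overlapped. So *atf5a* stood at place 2 of the 10 in the mutant, against place 6 in the sibling library.

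**Figure D3:**
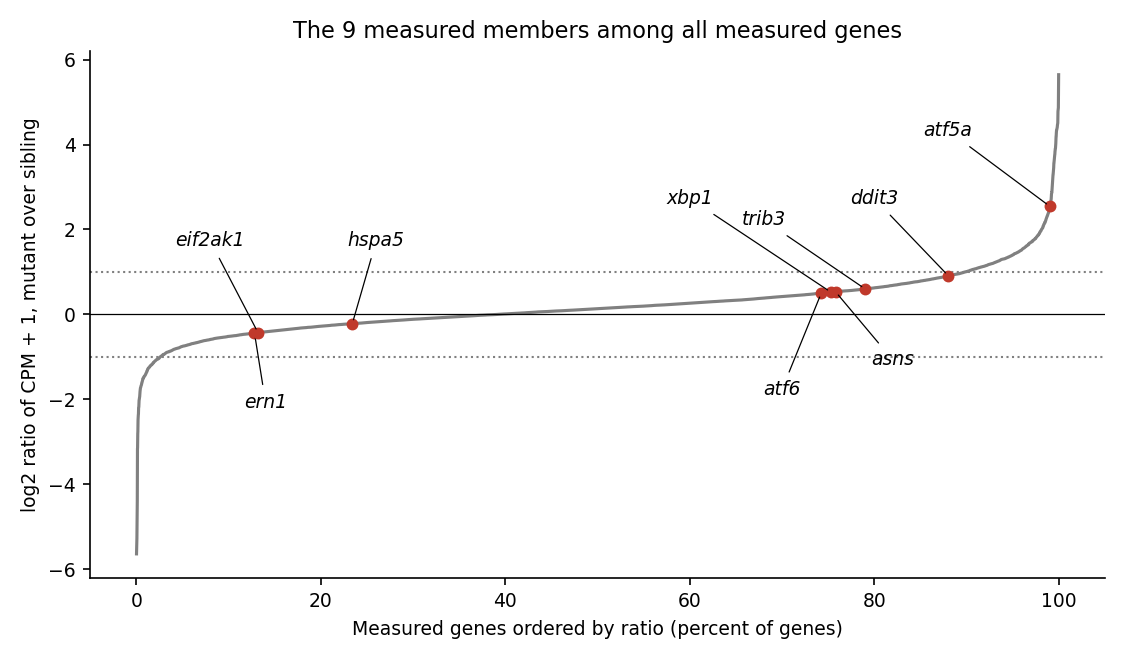
All 9672 measured genes ordered by their log2 ratio of CPM + 1 (grey line), with the 9 measured members as red points and dotted lines at 2-fold. *atf5a* lies near the top end, *asns*, *xbp1* and *atf6* lie close together with *trib3* a little above them, and *eif2ak1* and *ern1* lie close together in the lower part.

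Around these members, 10 lists of the wider pathway, which include the 10 members themselves, held 164 genes of the table, 141 of them measured. Of these, 9 (6.38%), *atf5a* among them, were called higher and 1 (0.709%) lower in the mutant library, beside 10.1% and 2.56% of all measured genes. With TMM scaling 7 (4.96%) were higher and 4 (2.84%) lower, beside 7.05% and 4.52% of all measured genes. Among the eIF2 kinases, *eif2ak3*, which senses misfolded protein in the endoplasmic reticulum, was at 11.8 CPM in the mutant, against 13.3 CPM in the sibling library, with an interval of the ratio from 0.63 to 1.23. *eif2ak2* and its fish paralog *pkz* were below the minimum and lay on opposite sides, and *eif2ak4* of the same list was not matched. *eif2ak2* had 13 counts in the mutant, against 22 in the sibling library, a ratio of 0.61 (0.28 to 1.27). *pkz* had 12 counts in the mutant, against 2 in the sibling library, a ratio of 6.20 (1.38 to 57.1). The list of eIF2, eIF2B and phosphatase genes had 13 measured genes, 0 of them called, and a median log2 ratio of -0.00. The largest ratio among its measured genes was that of *ppp1r15a*, the stress-induced phosphatase subunit Gadd34, at 274 CPM in the mutant, against 167 CPM in the sibling library, a ratio of 1.64 (1.52 to 1.77). The phosphatase catalytic gene *ppp1caa* was at 165 CPM in the mutant, against 243 CPM in the sibling library. The paralogs for the alpha subunit of eIF2 lay on opposite sides, *eif2s1a* at 282 CPM in the mutant, against 238 CPM in the sibling library, and *eif2s1b* at 185 CPM in the mutant, against 246 CPM in the sibling library.

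The stress response bZIP factors and partners had the highest median of the 10 lists, 0.60 over 11 measured genes, which ranged from 0.40 to 0.60 over the 5 scalings. The members *atf5a*, *ddit3* and *trib3* are among these genes, and the median is the value of *trib3*. In this list 3 genes rose, *atf5a*, *NUPR2* and *nupr1*, and 0 fell, beside 10.1% and 2.56% of all measured genes. *NUPR2* (ENSDARG00000094300, *nupr1a* in the name table) and *nupr1* encode small nuclear proteins of the stress response. *NUPR2* had 1276 counts in the mutant, against 286 in the sibling library, 4.61-fold higher (4.05 to 5.26). *nupr1* was at 24.5 CPM in the mutant, against 7.47 CPM in the sibling library, 3.28-fold higher (2.34 to 4.68). All 3 kept the call under the 5 scalings. *cebpg*, a partner of Atf4, was at 80.3 CPM in the mutant, against 44.2 CPM in the sibling library and was not called. The Atf4 genes themselves stood on the other side of 1, with *atf4b* at 804 CPM in the mutant, against 905 CPM in the sibling library, and *atf4a* at 96.0 CPM in the mutant, against 113 CPM in the sibling library.

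Among 26 measured Atf4 and Chop target genes, 5 rose, 0 fell and 21 passed in neither direction. With TMM scaling 3 rose and 2 fell. Of all measured genes, 10.1% were higher and 2.56% lower, or 7.05% and 4.52% with TMM scaling. *eif4ebp1*, which encodes an inhibitor of cap-dependent translation, was the most abundant of the 5 that rose by library totals. It had 6750 counts in the mutant, against 2566 in the sibling library, or 1133 CPM in the mutant, against 417 CPM in the sibling library, 2.72-fold higher (2.6 to 2.85). The amino acid transporter genes *slc1a4* and *slc7a1* were 4.33-fold (2.82 to 6.85) and 2.97-fold (2.16 to 4.12) higher, from 113 and 155 mutant counts. These 3 kept the call under the 5 scalings, but *mthfd1l*, a mitochondrial folate enzyme at 28.4 CPM in the mutant, against 12.7 CPM in the sibling library, and *vldlr*, a lipoprotein receptor at 14.3 CPM in the mutant, against 6.33 CPM in the sibling library, were called under 2 of the 5. Other targets stood below 1. *slc38a2*, a neutral amino acid transporter, was at 176 CPM in the mutant, against 340 CPM in the sibling library and was called lower under 4 of the 5 scalings. *shmt2*, a serine hydroxymethyltransferase, was at 172 CPM in the mutant, against 314 CPM in the sibling library and was called lower under 3 of the 5. *chac1*, a target of Atf4 and Chop, had a ratio of 1.05 (0.97 to 1.14). The median of the list was 0.25, and 0.06 with TMM scaling.

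**Figure D4:**
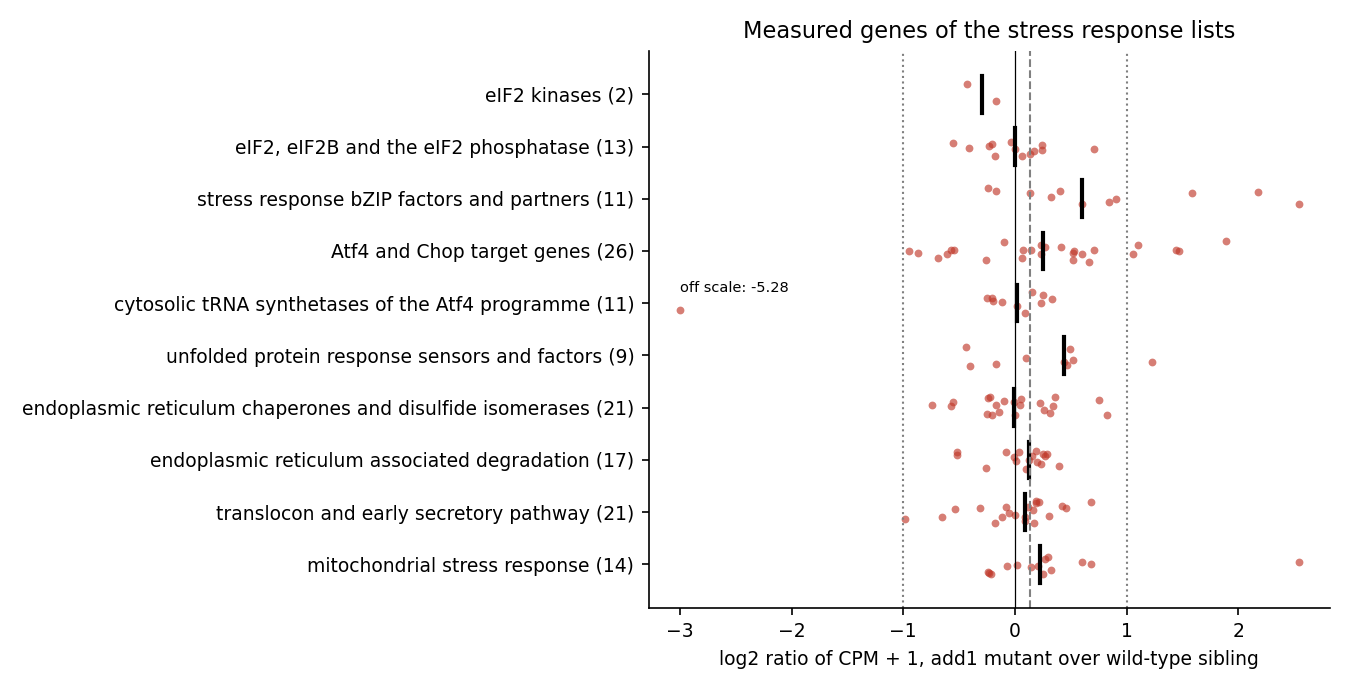
Log2 ratios of CPM + 1 of the measured genes in the 10 pathway lists, 1 point per gene, with the number of measured genes in brackets. Black bars are list medians, the dashed line is the median of all measured genes, dotted lines mark 2-fold, and *nars* is drawn at the edge with its value of -5.28. The bZIP factors have the highest median at 0.60, the value of the member *trib3*. The chaperone, degradation and translocon lists lie around 0 with no gene past 2-fold.

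Of 11 measured tRNA synthetase and export genes, only *nars* fell and 0 rose, with a median of 0.02. Among all measured genes 10.1% were called higher and 2.56% lower. *nars* (asparaginyl-tRNA synthetase, chromosome 21, 776340 to 797223) had 19 counts in the mutant, against 994 in the sibling library. It lies in the stretch from the start of chromosome 21 to the end of *add1*, where 11 of 11 measured genes, *add1* among them, were called lower, and none of the 10 members lies on that chromosome. The others ranged around 1, such as *gars* at 208 CPM in the mutant, against 165 CPM in the sibling library and *yars* at 230 CPM in the mutant, against 193 CPM in the sibling library. In the mitochondrial stress response list, 1 of 14 measured genes rose, *atf5a* again, and 0 fell, beside the same 10.1% and 2.56%. The chaperonin partner gene *hspe1* was at 128 CPM in the mutant, against 84.0 CPM in the sibling library. *dnaja3b*, a mitochondrial cochaperone gene, was at 21.7 CPM in the mutant, against 13.2 CPM in the sibling library. *dele1*, whose mammalian product carries mitochondrial stress to the heme-regulated kinase, was at 49.9 CPM in the mutant, against 58.6 CPM in the sibling library.

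None of the effector genes of the unfolded protein response was called by library totals. The shares of all measured genes were 10.1% called higher and 2.56% lower, or 7.05% and 4.52% with TMM scaling. Of 21 measured chaperone and disulfide isomerase genes, 0 were called in either direction, with a median of -0.00. All 27 genes found of this list, measured or not, summed to 3483 CPM in the mutant, against 3467 CPM in the sibling library, a ratio of 1.004 (0.985 to 1.024). Within the list, *pdia5*, a disulfide isomerase, was at 83.6 CPM in the mutant, against 46.8 CPM in the sibling library, and *serp1*, which stabilises membrane proteins, at 62.3 CPM in the mutant, against 36.5 CPM in the sibling library. *hsp90b1*, the Hsp90 of the endoplasmic reticulum, was at 104 CPM in the mutant, against 175 CPM in the sibling library, on the same side of 1 as *hspa5*. Of 17 measured degradation genes, 0 were called, with a median of 0.13, equal to that of all measured genes. *ube2j1* and *derl1*, both of the pathway that draws misfolded proteins out of the endoplasmic reticulum, were 1.45-fold lower each, with intervals from 1.18 to 1.79 and from 1.23 to 1.70, and *ube2j2* had a ratio with an interval from 0.97 to 1.89. Of 21 measured translocon and early secretory genes, 0 were called, with a median of 0.10. Its lowest member, the translocon subunit gene *sec61b*, was at 21.7 CPM in the mutant, against 43.7 CPM in the sibling library, not called by library totals but called lower under the other 4 scalings. *srprb*, a subunit of the signal recognition particle receptor, was at 108 CPM in the mutant, against 66.9 CPM in the sibling library, and *ssr1*, a translocon-associated protein gene, was at 30.9 CPM in the mutant, against 49.0 CPM in the sibling library.

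The list of sensors and factors of the unfolded protein response had a median of 0.44 over 9 measured genes, and *atf6b* was not matched. Of these 9, 1 rose and 0 fell, beside 10.1% and 2.56% of all measured genes. The share called was thus near that of all genes. The gene that rose was *creb3l2*, a membrane-bound factor that in vertebrates serves secretion of cartilage matrix. It was at 34.9 CPM in the mutant, against 14.3 CPM in the sibling library, 2.44-fold higher (1.90 to 3.17). It kept the call under the 5 scalings. Its relatives *creb3l1* and *creb3l3a* and the epithelial Ire1 gene *ern2* stayed below the minimum. They lay on both sides of 1, with 48 counts in the mutant, against 10 in the sibling library for *creb3l1*, and 34 counts in the mutant, against 2 in the sibling library for *ern2*, but 5 counts in the mutant, against 15 in the sibling library for *creb3l3a*. Genes of hatching gland and notochord, secretory tissues of the embryo, were higher in the same library. Of 13 measured markers 10 were called higher, as with TMM scaling, beside 10.1% of all measured genes (7.05% with TMM scaling). All 16 genes found of the list, measured or not, summed to 5707 CPM in the mutant, against 2412 CPM in the sibling library. Without *klf17*, which embryonic red cells also express, the sums were 3648 CPM in the mutant, against 385 CPM in the sibling library. The only marker of that list at 0 was *loxl5b*, in the sibling library. The part of these cells in the values of *creb3l2*, *xbp1*, *atf6*, *atf5a* or any other gene above was not tested.

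Markers of other cell types differed too. Of all measured genes, 10.1% were called higher and 2.56% lower, or 7.05% and 4.52% with TMM scaling. Sums here are over all genes found of a list, measured or not. Of 19 measured skeletal muscle markers 12 were called higher and 0 lower, against 10 higher and 1 lower with TMM scaling. Not all went the same way, since 5 of the 19 lay below the median of all genes. The muscle list summed to 13506 CPM in the mutant, against 4422 CPM in the sibling library, and no marker was at 0. Neural markers were called higher in 4 of 6 cases (3 with TMM scaling), with sums of 351 CPM in the mutant, against 143 CPM in the sibling library and *neurog1* at 0 in the sibling library. Epidermal markers were called higher in 3 of 7 cases, with sums of 2642 CPM in the mutant, against 1644 CPM in the sibling library. Myeloid markers were called lower in 4 of 9 cases (5 with TMM scaling) and higher in 0, but 3 of the 9 lay above the median of all genes. They summed to 973 CPM in the mutant, against 1141 CPM in the sibling library. Endothelial markers were called in 0 of 6 cases, with sums of 213 CPM in the mutant, against 166 CPM in the sibling library. Of 2 measured thrombocyte markers 1 was called higher and 1 lower, with sums of 67.7 CPM in the mutant, against 88.02 CPM in the sibling library and *mpl* at 0 in the mutant library. In the yolk and liver list *apoeb* alone was measured, at 92.2 CPM in the mutant, against 43.8 CPM in the sibling library, and was called higher by library totals but under none of the other 4 scalings. The list summed to 95.03 CPM in the mutant, against 54.1 CPM in the sibling library, and without *apoeb* to 2.85 CPM in the mutant, against 10.2 CPM in the sibling library, on the other side of 1. *ttr* and *fabp1b.1* were at 0 in both libraries. *gata1a*, whose promoter drives the reporter, was at 623 CPM in the mutant, against 834 CPM in the sibling library, and *hbbe1.1*, an embryonic globin gene, at 17003 CPM in the mutant, against 35404 CPM in the sibling library.

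**Figure D5:**
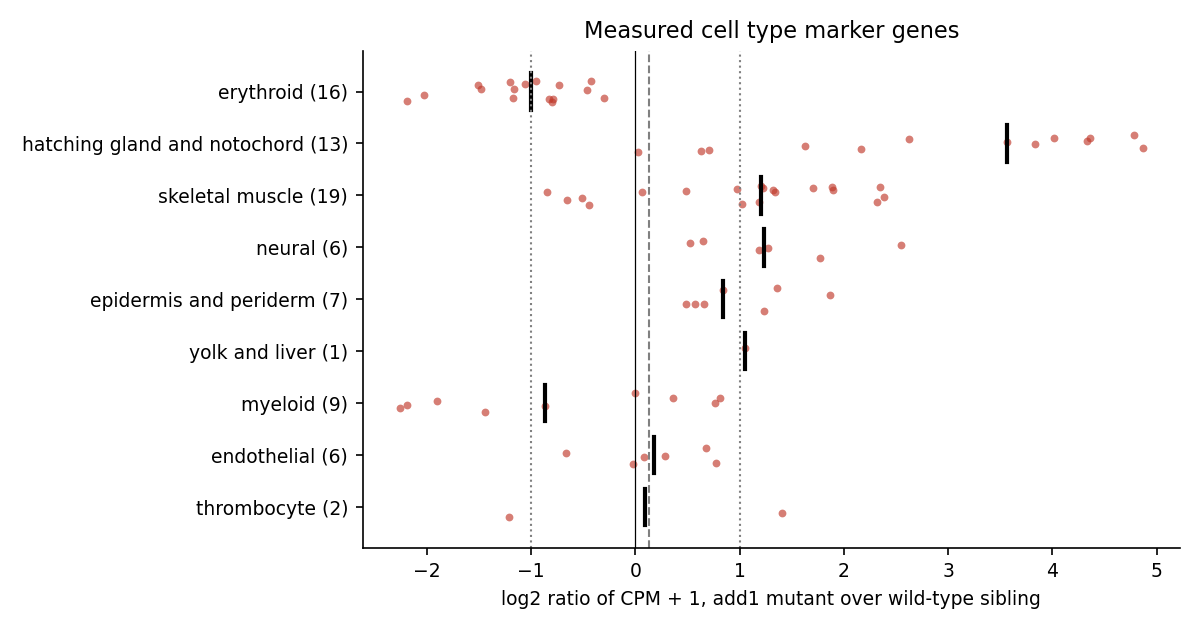
Log2 ratios of CPM + 1 of measured cell type markers, 1 point per gene, with the number of measured genes in brackets, black bars at list medians, a dashed line at the median of all measured genes and dotted lines at 2-fold. Erythroid markers have a median of -1.003 and hatching gland and notochord markers one of 3.57.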

How the data were processed

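Read counts per gene, not normalized, and FPKM were deposited by the authors for each library, with reads mapped to the zebrafish build GRCz10 per the submitters' processing notes. Per the labels' protocols, the SMART-Seq HT kit was used and a BGISEQ-500 read the libraries. No aligner, counter, strand setting or filter is named in the sources used here. Counts were scaled to library totals (CPM), and 10 CPM was 59.6 counts in the mutant and 61.6 counts in the sibling library. Ratios used CPM + 1. Intervals are exact (Clopper-Pearson) and cover counting error only. The kit adds no molecular identifiers and no removal of PCR copies is named, so the intervals can be too narrow even for counting error. The FPKM per count ratio of the libraries, 1.03, equalled that of the totals. Other scalings were TMM (edgeR 4.0.16, for scaling factors only), median of ratios, upper quartile, and totals that leave out hemoglobin genes, genes of the mitochondrial genome and ribosomal protein genes.

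Members, lists and rules were chosen with earlier results of these data known. Of 283 list symbols, 262 were found by name and 5 by gene ID, and 16 were not matched. Of each pathway list, all genes past 2-fold were named, or the 3 with the largest absolute ratio where fewer passed. *add1*, *gata1a* and *hbbe1.1* check the labels. Of each marker list, up to 3 abundant genes could be named. *atf4a*, *atf4b*, *cebpg*, *eif2s1a*, *slc38a2*, *shmt2*, *chac1*, *dele1*, *ern2*, *creb3l1*, *creb3l3a*, *ddit4*, *slc7a11*, *eif2ak2*, *pkz*, the overlapping genes and the markers at 0 were named after their values were seen. Likeness of pattern was not computed, since with 2 libraries each gene has a single ratio, and its rank is given instead. Sequences were not used here.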

Additional observations from a re-analysis of the deposited data

How the results depend on the processing

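The call of *atf5a* as higher stood under each of the 13 alternatives, and no member's ratio changed direction under the 4 other scalings, FPKM or the 2 other pseudocounts. Of the 9 measured members, 3 were called higher and 0 lower with a 1.5-fold rule, beside 21.5% and 8.17% of all measured genes. With the counting interval 6 were higher and 3 lower, beside 40.0% and 21.9%. Over all genes, TMM, median of ratios and upper quartile gave 435, 431 and 428 lower genes. With a minimum of 1 CPM or none, 2414 were higher and 578 lower, with 50 CPM 270 and 123, with a 1.5-fold rule 2083 and 790, with a 4-fold rule 179 and 29, with intervals 3871 and 2116, and with a pseudocount of 5, 627 were higher. Looser rules pass more genes by construction. The median of the 2 eIF2 kinases was -0.492, -0.490 and -0.489 with TMM, median of ratios and upper quartile, and that of the degradation list -0.0725, -0.0704 and -0.0696, a shift of all genes. No paired analysis was possible because each genotype had 1 library. Depth limits *atf5b*, *eif2ak3*, *creb3l1*, *creb3l3a* and *ern2*.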

Other observations

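*fech*, the gene of ferrochelatase, which puts iron into heme, lies in the same first part of chromosome 21 as *nars* and *add1*, and was chosen after its value was seen. It had 14 counts in the mutant, against 904 in the sibling library, or 2.35 CPM in the mutant, against 147 CPM in the sibling library. Heme and the activity of the heme-regulated kinase encoded by *eif2ak1* were not measured. *ddit4*, a stress-induced inhibitor of mTOR signalling that stayed below the minimum of 10 CPM, had 39 counts in the mutant, against 8 in the sibling library, a ratio of 5.04 (2.32 to 12.5). *slc7a11*, the cystine transporter gene of the same target list and also below the minimum, stood on the other side of 1, with 10 counts in the mutant, against 27 in the sibling library, 2.61-fold lower (1.23 to 6.05). Both were chosen after their values were seen.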
